A study of Mus musculus with 8 samples.

Results

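A set of 10 genes of the epithelial barrier of the lung was examined in RNA of unsorted lung tissue, out of 24584 genes in the tables. They were chosen by name: 5 tight junction genes (Cldn18, Cldn3, Cldn4, Ocln and Tjp1), the adherens junction gene Cdh1, and 4 genes used as markers of alveolar type 1 (AT1) cells (Ager, Hopx, Pdpn and Cav1). RNA-seq was made from 4 lungs of mice given lipopolysaccharide (LPS, a component of the outer membrane of Gram-negative bacteria) and 4 lungs of mice given tangeretin, a citrus flavone, before the same LPS, named LPS + Tan here. Per the study's methods the animals were male ICR mice aged 6 to 8 weeks. ICR is an outbred stock, and the sample labels give the genotype as "widetype". Both agents went into the peritoneal cavity, the LPS (from Escherichia coli) at a dose of 5 mg/kg and the tangeretin, 30 min ahead of it, at 50 mg/kg. Lungs were collected 12 h after LPS. Whether the LPS group received the vehicle of tangeretin was not stated. All 8 lungs thus carried LPS, and neither untreated lungs nor lungs given tangeretin alone were analysed here, so the values compare treated with LPS-only lungs and say nothing of what LPS itself did. Libraries held 38895654 to 39931970 counted reads.

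Tight junctions seal the space between neighbouring epithelial cells near their apical surface. Claudins form the selective seal, occludin is a second membrane protein of the strands, and ZO-1, the product of Tjp1, ties them to the actin skeleton, while E-cadherin holds the cells together in the adherens junction below. In the alveolus the barrier is made of flat AT1 cells, which cover most of the gas exchange surface, and cuboidal type 2 (AT2) cells, which make surfactant and can renew AT1 cells. Injury of this layer lets fluid into the airspace.

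Promoter windows were available for 9 of the 10 genes, 13 windows in all, with Cdh1 not among them (RefSeq, GRCm38.p6). A window covers 250 bases before the transcription start and 50 bases from it on. The windows of Ager and Tjp1 lie wholly inside the gene positions given below. For these genes the bases before the outermost start were not searched. Each was searched on both strands for 4 short motifs. The E-box, CACCTG, is bound by SNAIL and ZEB repressors of junction genes, and it was found in 6 of the 13 windows against 20.2% of 32851 windows of all genes. The GC box, GGGCGG, was found in 7 against 35.7%. The AP-1 motif, TGACTCA, was found in 1 against 5.20%. The TEAD motif, GGAATG, was found in 0 against 14.7%. The share of G and C bases ran from 48.7% to 68.0% in the 13 windows, against a median of 52.7% over all windows. Its part in these motif counts was not tested. No matches of different motifs overlapped, but the windows of Ocln overlap each other and share an E-box. The windows of 3 genes are shown down to 30 bases from the start. Cldn4 and Pdpn were chosen because their values were correlated across lungs, and Ager because it is the most abundant of the genes. The variation of Cldn4 between lungs was close to its counting error, as given below. Capitals mark E-box and AP-1 matches on either strand. The Cldn4 window shown is chr5:134946905-134947184 on the minus strand, that of Pdpn chr4:143299535-143299814 on the minus strand, and that of Ager chr17:34597600-34597879 on the plus strand.
Cldn4: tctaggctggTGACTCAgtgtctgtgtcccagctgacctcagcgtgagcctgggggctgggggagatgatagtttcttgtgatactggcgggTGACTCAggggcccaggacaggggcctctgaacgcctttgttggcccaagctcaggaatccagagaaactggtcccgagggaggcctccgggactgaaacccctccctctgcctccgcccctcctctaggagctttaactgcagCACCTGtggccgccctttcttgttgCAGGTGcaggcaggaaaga
Pdpn: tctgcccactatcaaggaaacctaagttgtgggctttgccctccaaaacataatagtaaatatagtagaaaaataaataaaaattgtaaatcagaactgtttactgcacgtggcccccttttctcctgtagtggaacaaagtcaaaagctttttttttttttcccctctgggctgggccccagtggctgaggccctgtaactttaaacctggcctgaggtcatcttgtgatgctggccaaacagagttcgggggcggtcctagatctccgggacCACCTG
Ager: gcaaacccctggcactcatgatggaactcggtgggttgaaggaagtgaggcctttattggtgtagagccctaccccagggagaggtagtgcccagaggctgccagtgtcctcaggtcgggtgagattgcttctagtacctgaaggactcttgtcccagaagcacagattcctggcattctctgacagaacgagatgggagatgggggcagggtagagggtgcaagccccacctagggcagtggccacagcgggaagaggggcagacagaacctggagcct
The Cldn4 window held AP-1 matches 240 and 158 bases before the start, and E-boxes 14 bases before and 11 bases after it. The Pdpn window held an E-box 24 bases after its start, and the Ager window held no E-box and no AP-1 match. A match of letters is not a measured binding site.

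No difference between LPS + Tan and LPS lungs was detected for any of the 10 genes. All 10 passed the filter on low counts. By edgeR's quasi-likelihood test 0 of 10 had an unadjusted p under 0.05, 0 of 10 had an adjusted p under 0.05, and in 0 of 10 did the groups fail to overlap. The lowest unadjusted p was 0.0803, for Cav1. DESeq2, limma-voom and limma on log2(FPKM + 1) likewise called 0 of 10 at an unadjusted p under 0.05. Over all 15706 genes tested, 2.87% were higher and 2.25% lower in LPS + Tan at an unadjusted p under 0.05, 0.649% also passed a log2 fold change of 1 in either direction, 0% had an adjusted p under 0.05 (lowest 0.497), and 2.73% had groups that did not overlap. The balance of unadjusted calls depended on the scaling, with 451 higher and 353 lower genes after TMM scaling, 653 and 239 without TMM factors, and 644 and 276 in limma on log2(FPKM + 1). Of the 10 genes 7 had a negative and 3 a positive log2 fold change, with a median of -0.069, against a median of 0.0070 and 48.2% negative over all tested genes. The number of negative values depended on the setting, with 9 in DESeq2 and limma-voom and 5 without LPS + Tan replicate 3, the highest and the lowest over the 18 alternatives. The replicates are separate lungs, and the p-values measure the spread between them.

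**Figure D1:**
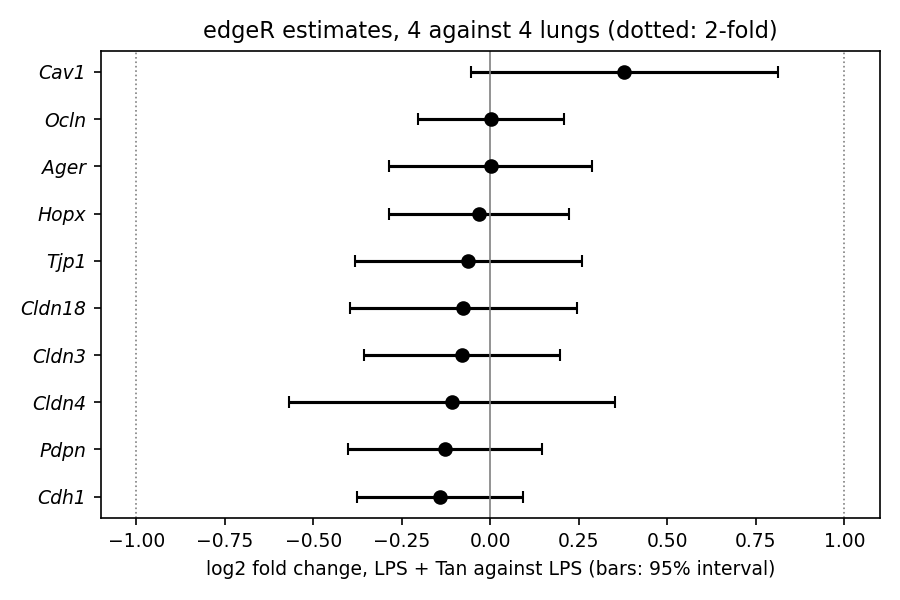
Log2 fold change of LPS + Tan against LPS (x axis) for each of the 10 genes (y axis), from edgeR, with bars giving the 95% interval and dotted lines a 2-fold change. Every interval crosses 0 and none reaches a 2-fold change, and Cav1 has the highest estimate, 0.38.

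Gene positions below are those of RefSeq on GRCm38.p6. The levels were compared per gene length, as FPKM (reads scaled to gene length and to the library total). Ager and Hopx headed the order with medians over the 8 lungs of 432 and 271, followed by Cav1 at 196, Cldn18 at 129, Tjp1 at 63.6, Pdpn at 61.8, Cdh1 at 49.9, Cldn3 at 45.8, Ocln at 12.9 and Cldn4 at 0.875. Ager did not overlap Hopx in any lung, and clear steps also lay between Cldn18 and Tjp1 (2.02-fold), Cldn3 and Ocln (3.54-fold) and Ocln and Cldn4 (14.8-fold). The other neighbours in the order, from Hopx to Cldn18 and from Tjp1 to Cldn3, overlapped in range. The summed FPKM of the 10 genes was 1191 to 1304 in LPS and 1235 to 1465 in LPS + Tan lungs.

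**Figure D2:**
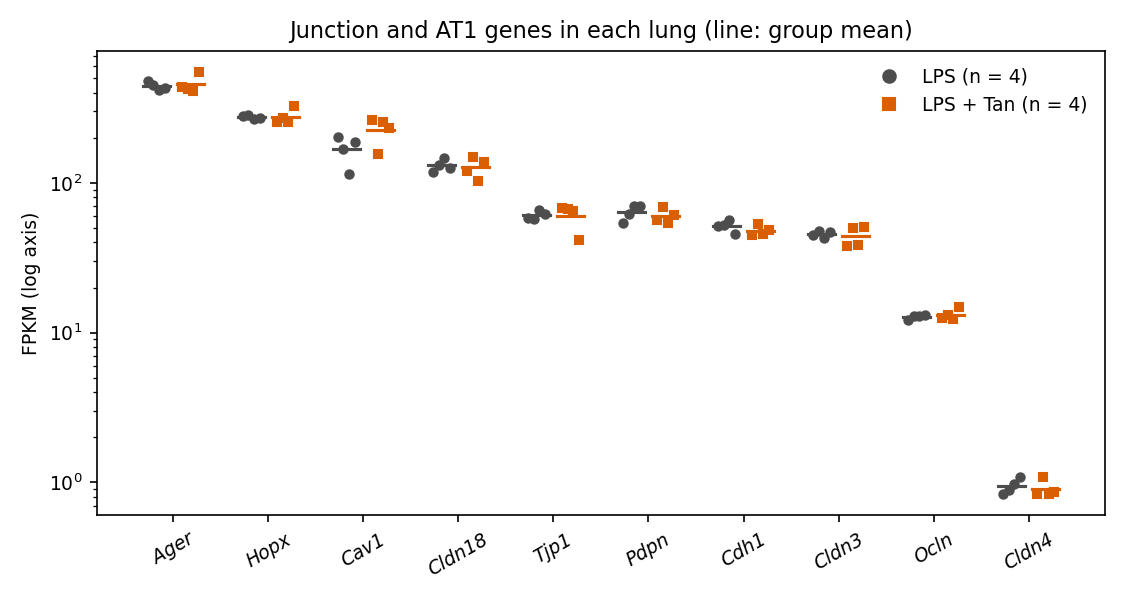
FPKM on a log axis for the 10 genes in each of the 8 lungs, with grey circles for LPS and orange squares for LPS + Tan and a line at each group mean. Levels run from about 0.875 for Cldn4 to 432 for Ager (medians), and the groups overlap for every gene.

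Cldn18 (chr9:99690796-99717267), the main claudin of the alveolar epithelium, read 119, 131, 147 and 126 FPKM in LPS replicates 1 to 4 and 119, 150, 102 and 138 in LPS + Tan replicates 1 to 4. The lowest lung had received tangeretin, and the highest was LPS + Tan replicate 2 in FPKM but LPS replicate 3 in the scaled CPM that was tested (466 and 479 CPM). The means were 131 ± 11.96 and 127 ± 20.9 FPKM (SD, n = 4 each), and the log2 fold change was -0.076 with a 95% interval from -0.40 to 0.24 (edgeR adjusted p = 0.982).

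Cldn3 (chr5:134986214-134987476), a claudin of AT2 and airway cells, read 44.6, 48.0, 42.8 and 46.9 FPKM in LPS and 37.9, 50.2, 38.4 and 50.4 in LPS + Tan lungs. The tangeretin lungs split into a pair below and a pair above every LPS lung, and their log2 fold change was -0.080 (interval -0.36 to 0.20, edgeR adjusted p = 0.979). Cldn4 (chr5:134945123-134946934), a sealing claudin linked to the injured alveolar epithelium, was counted in few reads. It had 60, 63, 71 and 77 reads in LPS and 60, 77, 59 and 62 in LPS + Tan lungs, 0.949 ± 0.114 and 0.905 ± 0.120 FPKM (SD, n = 4 each). The coefficient of variation between lungs was 12.5% and 14.7%, and counting error alone gives 12.3% at this depth. The 95% interval of its fold change ran from 0.675 to 1.277 (edgeR adjusted p = 0.982). Cldn3 and Cldn4 are neighbours on chromosome 5, 39279 bases apart with no RefSeq gene between them.

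Ratios within a lung were compared because they do not depend on library scaling. Cldn4 stood at 0.0067 to 0.0087 of Cldn18 in LPS and 0.0063 to 0.0081 in LPS + Tan lungs, and Cldn3 at 0.291 to 0.375 and 0.318 to 0.375. No difference was detected (exact permutation test, two-sided, p = 0.914 and p = 0.886), and the ratio of Cldn4 to Cldn3 gave p = 1 in the same exact test. In all 7 ratios were tested, each with a Benjamini-Hochberg adjusted p of 1, and 0.0286 is the smallest p that 4 against 4 allows.

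Ocln (chr13:100496504-100552718), the gene of occludin, was the least variable of the members in LPS + Tan after Cdh1, with 12.2, 12.9, 13.0 and 13.2 FPKM in LPS and 12.6, 13.0, 12.3 and 14.8 in LPS + Tan lungs. Its log2 fold change of 0.0028 had an interval from -0.20 to 0.21 (edgeR adjusted p = 0.998). Tjp1 (chr7:65296165-65527850) read 58.3, 57.5, 65.6 and 62.4 FPKM in LPS and 68.5, 66.6, 64.8 and 41.5 in LPS + Tan lungs. LPS + Tan replicate 4 was below all other lungs. Replicates 1 and 2 were above every LPS lung in FPKM, but below LPS replicate 3 in the scaled CPM that was tested (576 and 574 against 592 CPM). The log2 fold change of Tjp1 was -0.062 (interval -0.38 to 0.26, edgeR adjusted p = 0.985), and without LPS + Tan replicate 4 it was 0.066. The ratio of Tjp1 to Ocln was 5.45, 5.11, 5.27 and 2.81 in LPS + Tan against 4.46 to 5.06 in LPS lungs (difference of log2 means -0.078, exact permutation p = 1). Without LPS + Tan replicate 4 the difference turned to 0.15 and the groups no longer overlapped, with an exact permutation p of 0.0571, the smallest that 4 against 3 allows.

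Cdh1 (chr8:106603350-106670247), the gene of E-cadherin, read 51.4, 52.1, 56.6 and 45.7 FPKM in LPS and 44.6, 53.2, 45.5 and 48.4 in LPS + Tan lungs, 51.4 ± 4.51 and 47.9 ± 3.88 (SD, n = 4 each). The groups overlapped, with a log2 fold change of -0.14 (interval -0.38 to 0.093, edgeR adjusted p = 0.936).

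LPS + Tan replicate 4 differed from the other libraries by gene length, and this touches several values. Over all tested genes the rank correlation of its deviation from the group mean with gene length was -0.390, against -0.160 to 0.176 in the other libraries. With the genes in 5 equal classes by length, the shortest class (105 to 1878 bases, holding Cldn3, Cldn4, Ager, Hopx and Pdpn) lay 0.167 above the group mean on the log2 scale at the median, and the longest class (6657 to 117640 bases, holding Tjp1) had a median of -0.163. In this library Tjp1 deviated by -0.45, Ager by 0.35, Hopx by 0.31 and Cldn3 by 0.27 on the log2 scale, and Cldn4 by 0.0030. Without it the log2 fold changes were -0.13 for Ager, -0.15 for Hopx, -0.17 for Cldn3 and 0.34 for Cav1, 8 of the 10 genes had a negative value and none had an unadjusted p under 0.05. With the length trend of each library taken into the fit as an offset, an alternative chosen after seeing the data, the log2 fold changes were -0.069 for Tjp1, -0.017 for Ager, -0.054 for Hopx, -0.099 for Cldn3 and 0.37 for Cav1, and again none of the 10 had an unadjusted p under 0.05 in edgeR.

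**Figure D3:**
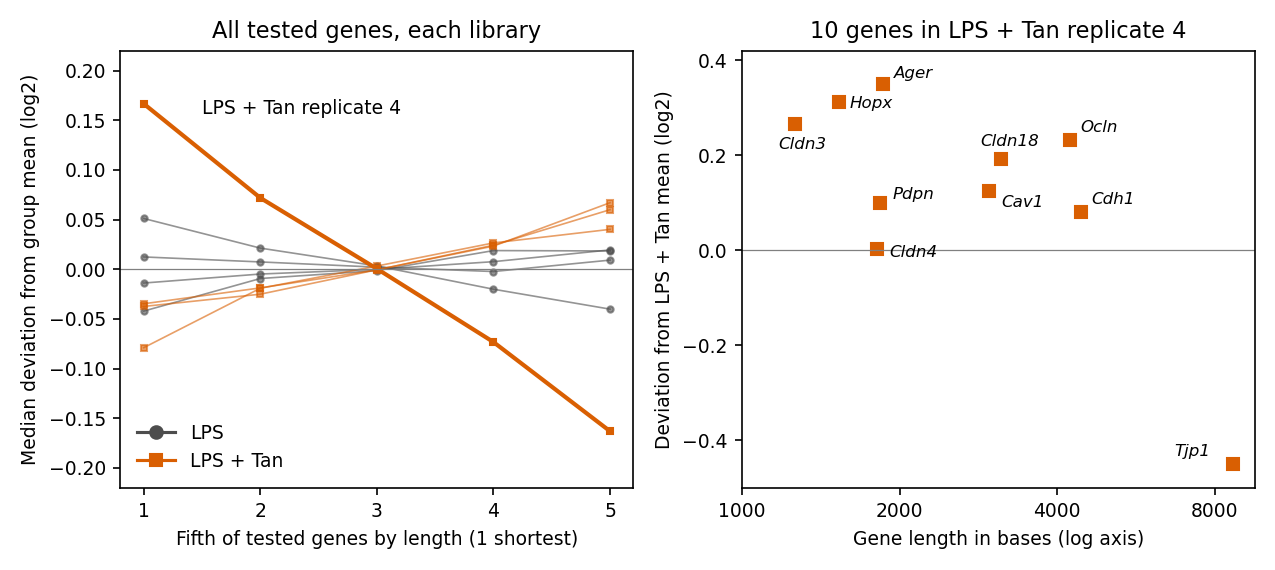
Left, median deviation from the group mean (log2) of tested genes in 5 classes of gene length for each library, grey for LPS and orange for LPS + Tan. Right, deviation of the 10 genes in LPS + Tan replicate 4 against gene length on a log axis. Replicate 4 goes from 0.167 in the shortest to -0.163 in the longest class, and Tjp1, the longest of the 10 genes, is lowest at -0.45.

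Among the AT1 markers, Ager (chr17:34597460-34600937), which encodes the receptor RAGE of the AT1 basal membrane, read 480, 454, 415 and 428 FPKM in LPS and 436, 427, 408 and 552 in LPS + Tan lungs. Its log2 fold change was 0.0013 (interval -0.29 to 0.29, edgeR adjusted p = 0.999). Hopx (chr5:77086986-77115123), a small homeodomain protein that does not bind DNA itself, read 280, 283, 265 and 272 FPKM in LPS and 254, 270, 254 and 326 in LPS + Tan lungs, with a log2 fold change of -0.032 (interval -0.29 to 0.22, edgeR adjusted p = 0.989). Both genes were tight among LPS lungs, with coefficients of variation of 5.82% and 1.68%, and wider among LPS + Tan lungs, at 17.8% and 16.0%, where replicate 4 was highest for both. Without replicate 4 the LPS + Tan values were 5.20% and 5.99%. The median coefficient over the 10 genes was 9.12% in LPS and 16.9% in LPS + Tan lungs, or 13.99% without replicate 4. Over 9609 genes with a mean of at least 10 CPM in LPS the same values were 8.24%, 11.8% and 8.67%. CPM are counts scaled to the library total as adjusted by TMM.

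Pdpn (chr4:143267409-143299564), podoplanin, a surface glycoprotein of AT1 cells that lymphatic endothelium also carries, read 53.8, 62.2, 69.95 and 69.9995 FPKM in LPS and 56.5, 68.9, 53.9 and 61.4 in LPS + Tan lungs. The groups overlapped and the log2 fold change was -0.13 (interval -0.40 to 0.14, edgeR adjusted p = 0.961). The ratio of Pdpn to Ager was 0.112 to 0.169 in LPS and 0.111 to 0.161 in LPS + Tan lungs (exact permutation p = 0.429). The 4 lymphatic markers beside Pdpn all had a negative log2 fold change (median -0.14, 0 past an unadjusted p of 0.05 in edgeR) and summed to 761 to 1265 FPKM in LPS and 534 to 877 in LPS + Tan lungs. Lyve1 alone held most of that sum, at 708 to 1215 FPKM in LPS and 484 to 847 in LPS + Tan lungs. Of the others, Mmrn1 averaged 7.56 FPKM in both groups, Ccl21a 45.6 and 45.2, and Prox1 0.552 and 0.486. The 4 mesothelial markers summed to 26.0 to 46.3 and 27.1 to 39.6. Their part in the Pdpn values was not tested. Ager against Sftpc, the surfactant protein C gene of AT2 cells, stood at 0.0674 to 0.103 and 0.0641 to 0.0858 (exact permutation p = 0.6). In unsorted lung tissue, fewer cells of a type and less RNA per cell cannot be told apart.

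Cav1 (chr6:17306335-17341328), caveolin-1, which coats the small membrane pits called caveolae in AT1 cells and in capillary endothelium, had the highest estimate of the 10 genes. It read 204, 169, 115 and 189 FPKM in LPS and 262, 156, 255 and 232 in LPS + Tan lungs. Of the 4 tangeretin lungs 3 were above every LPS lung, and replicate 2 was below all LPS lungs but replicate 3. The means were 169 ± 38.7 and 226 ± 48.3 FPKM (SD, n = 4 each), the log2 fold change was 0.38 with an interval from -0.055 to 0.81, and the edgeR p of 0.0803 became 0.924 after adjustment. The unadjusted edgeR p passed 0.05 when LPS replicate 1 (log2 fold change 0.48) or LPS + Tan replicate 2 (0.52) was left out. It did not pass without any other lung, and the log2 fold change was 0.24 without LPS replicate 3, the lowest lung for Cav1, and 0.31 without LPS + Tan replicate 1. The estimate thus ran from 0.24 to 0.52 over the lungs left out, with adjusted values from 0.342 to 0.9999 over all alternatives.

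The other caveolar genes were on the same side. All 7 of those tested had a positive log2 fold change, with a median of 0.25, but 0 passed an unadjusted p of 0.05 in edgeR. Without LPS + Tan replicate 2, 4 of them passed, as did 820 higher and 806 lower genes over the whole table against 451 and 353 with it, and 1 passed in DESeq2 with all lungs. Cav2, the partner of caveolin-1, averaged 67.6 ± 8.90 FPKM in LPS and 82.7 ± 12.3 in LPS + Tan lungs (SD, n = 4 each), with a log2 fold change of 0.25 (edgeR adjusted p = 0.924). Cavin1, which is needed to form caveolae, averaged 66.0 and 79.3 FPKM with a log2 fold change of 0.23. Across the 8 lungs, with the group means removed, Cav1 had a Pearson r of 0.97 with Cav2, 0.93 with Cavin3, 0.91 with Cavin2, 0.80 with Cavin1 and 0.76 with Ehd2, and of -0.072 with Pacsin2 and 0.017 with Cav3. Spearman's rho was 1.0 with Cav2, 0.90 with Cavin3, 0.88 with Cavin2, 0.74 with Cavin1 and 0.93 with Ehd2. Without the 2 lungs farthest from the median of Cav1 the r was 0.93, 0.80, 0.65, 0.51 and 0.99 in the same order. These are descriptions over lungs that share library and cell content.

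**Figure D4:**
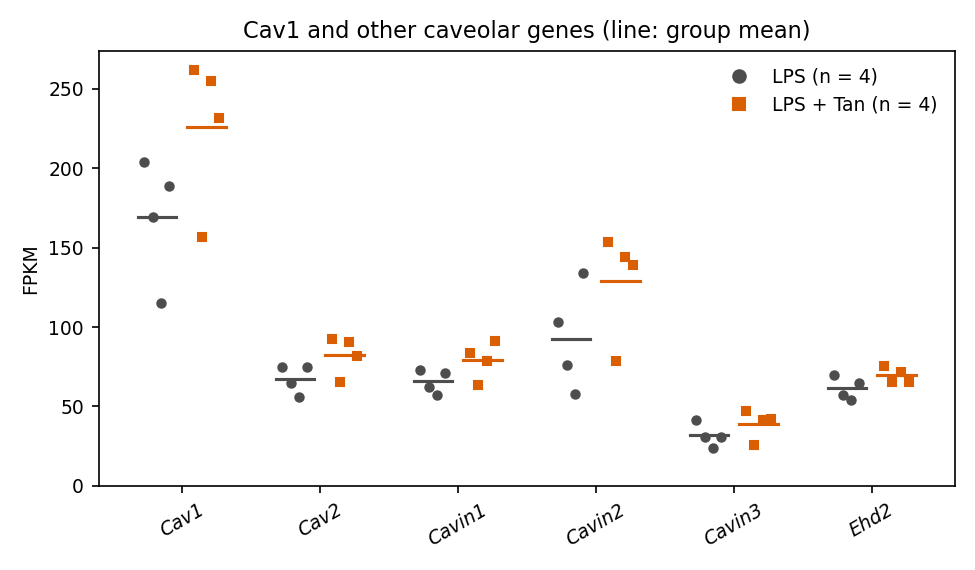
FPKM of Cav1 and 5 other caveolar genes in each lung, grey circles for LPS and orange squares for LPS + Tan, with a line at each group mean. LPS + Tan replicate 2 is the lowest LPS + Tan lung for Cav1, at 156 against 232 to 262 in the others.

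Endothelial markers were given beside Cav1 because endothelium also makes it. Of the 8, 2 were higher at an unadjusted p under 0.05 and 0 lower, with a median log2 fold change of 0.22. These were Kdr, the VEGF receptor 2 (means of 32.5 and 43.3 FPKM, log2 fold change 0.37), and Tek, the angiopoietin receptor TIE2 (54.4 and 80.1 FPKM, 0.51), both with an edgeR adjusted p of 0.924. The summed FPKM of the 8 was 1266 to 1613 in LPS and 1529 to 1601 in LPS + Tan lungs, and none was at 0. Cdh5, VE-cadherin, averaged 322 and 300 FPKM (log2 fold change -0.15), and the ratio of Cav1 to Cdh5 was 0.303 to 0.701 in LPS and 0.440 to 0.917 in LPS + Tan lungs (exact permutation p = 0.229). With group means removed, Cav1 had an r of 0.78 with Tie1, 0.71 with Tek, 0.69 with Pecam1, 0.35 with Emcn, 0.22 with Kdr, -0.18 with Plvap, -0.24 with Cldn5 and -0.80 with Cdh5. Without the 2 lungs farthest from the median of Cav1 these were 0.70, 0.33, 0.82, 0.66, 0.62, 0.52, -0.050 and 0.40 in the same order, and the sign turned for Plvap and Cdh5. The part of endothelial RNA in the Cav1 values was not tested.

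With group means removed, 30 of the 45 pairs of the 10 genes had a positive Pearson r across the lungs, with a median of 0.39, and 8 pairs had an r below -0.5. Cav1 and Tjp1, set apart after their values were seen, held most of the negative pairs. Among the other 8 genes 27 of 28 pairs were positive, with a median of 0.62. The highest were Ager with Hopx at 0.95 and Cldn4 with Pdpn at 0.92, followed by Ocln with Hopx at 0.90, Cldn18 with Pdpn at 0.85, and Cldn3 with Hopx and Cldn18 with Cdh1 at 0.83. Leaving out the 2 lungs farthest from the median gave 0.82 for Ager with Hopx and 0.97 for Cldn4 with Pdpn, but 0.35 for Ocln with Hopx, which rests on those lungs. The coefficient of variation of Cldn4 between lungs, 12.5% in LPS and 14.7% in LPS + Tan, was close to the 12.3% of counting error alone. Its r values therefore describe variation hardly above counting error. The chromosome 5 neighbours Cldn3 and Cldn4 had an r of 0.58. Cav1 went the other way, with 8 of 9 pairs negative and its lowest r at -0.79, with Cdh1. Tjp1 had 7 of 9 pairs negative with a median of -0.39, but without LPS + Tan replicate 4 it had 5 of 9 positive with a median of 0.077, so its negative pairs rest in part on that library. Its r with Ager was -0.87, and -0.54 without that library. All points share depth and cell content, so no p is given.

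**Figure D5:**
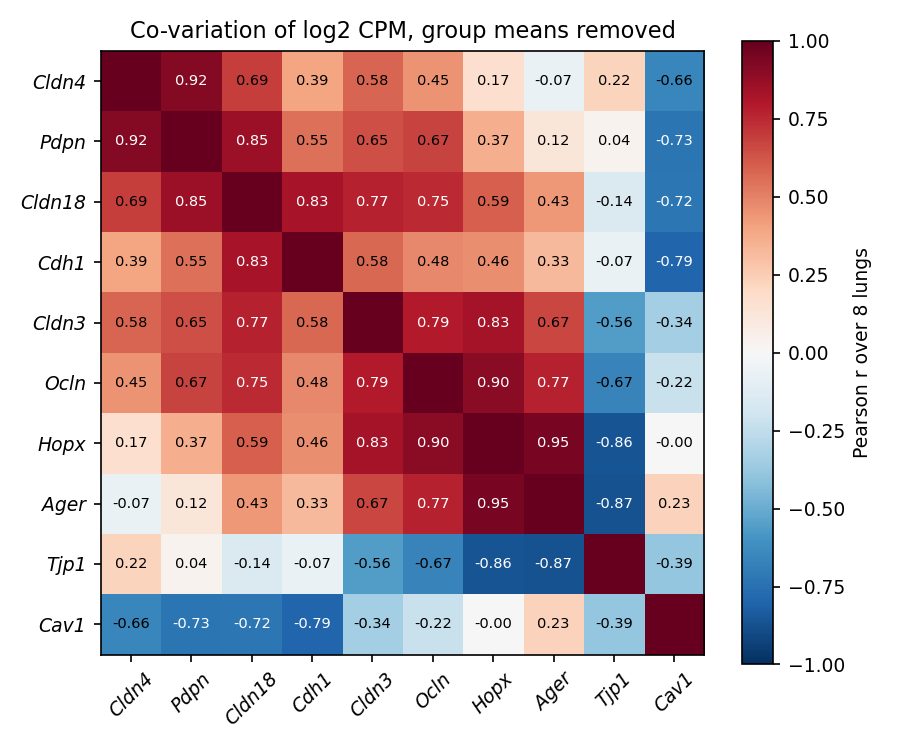
Pearson r of log2 CPM over the 8 lungs, with each group's mean removed, for every pair of the 10 genes (red positive, blue negative). Over all 45 pairs 30 are positive. The 8 genes from Cldn4 to Ager are positive in 27 of 28 pairs, and Cav1 is negative in 8 and Tjp1 in 7 of 9 pairs.

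Of the other claudins, 10 of the 18 in the tables were tested, 4 with a positive and 6 with a negative log2 fold change and a median of -0.035. Cldn2, which forms cation pores in leaky epithelia, was lower in LPS + Tan at an unadjusted p, with 1.64, 1.80, 1.90 and 1.66 FPKM in LPS and 0.697, 1.22, 1.502 and 1.02 in LPS + Tan lungs. Its groups did not overlap, and its log2 fold change was -0.70 ± 0.214 (SE; edgeR adjusted p = 0.924). None was higher. The endothelial claudin Cldn5 was the most abundant at 414 ± 22.8 and 416 ± 85.1 FPKM, above Cldn18, and Cldn7 averaged 14.1 and 13.8 FPKM (SD where given, n = 4 each).

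Of 24 other tight junction genes tested, 1 was higher and 1 lower at an unadjusted p under 0.05, with a median log2 fold change of -0.034. The higher gene no longer passed without LPS replicate 1, 2 or 4 or LPS + Tan replicate 3, and no gene was lower without LPS replicate 2 or 3 or LPS + Tan replicate 1, but 4 were without LPS + Tan replicate 2, where the whole table went from 353 to 806 lower genes. Marveld2, tricellulin, which seals the points where 3 cells meet, read 3.71, 4.06, 3.96 and 3.66 FPKM in LPS and 4.38, 4.70, 4.55 and 4.81 in LPS + Tan lungs. The groups did not overlap (log2 fold change 0.22, edgeR adjusted p = 0.924). Cgn, cingulin, a cytoplasmic junction protein, averaged 12.1 ± 0.723 and 9.66 ± 2.05 FPKM (SD, n = 4 each), with overlapping groups (log2 fold change -0.36, edgeR adjusted p = 0.924). Among 18 adherens junction and desmosome genes 1 was higher and 0 lower, with a median of 0.038. This was Jup, plakoglobin, at 36.7 ± 4.56 and 49.8 ± 8.17 FPKM (SD, n = 4 each; log2 fold change 0.40, edgeR adjusted p = 0.924), and Epcam averaged 27.9 and 25.7 FPKM. Leaving out 1 lung at a time gave 1 to 2 higher and 0 to 2 lower genes in this list.

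Of 30 other AT1 genes tested, 1 was higher and 0 lower, with 19 positive log2 fold changes and a median of 0.083. Without LPS + Tan replicate 2, 5 were higher, while the whole table went from 451 to 820 higher genes. Over all lungs left out in turn, 1 to 5 of these AT1 genes were higher and 0 to 2 lower. Sema3a, a secreted guidance protein, read 3.45, 3.92, 3.96 and 4.35 FPKM in LPS and 5.79, 4.82, 5.39 and 4.65 in LPS + Tan lungs, without overlap (log2 fold change 0.35, edgeR adjusted p = 0.850). Aqp5, the water channel of AT1 cells, averaged 52.8 ± 11.5 and 62.9 ± 9.07 FPKM, and Rtkn2 27.7 ± 4.80 and 31.1 ± 3.07 (SD, n = 4 each), with adjusted p-values of 0.938 and 0.965 in edgeR. Of 16 genes of the Krt8-positive transitional state, which AT2 cells pass through on the way to AT1, 0 were higher and 1 lower, with a median of -0.11. None was lower without LPS replicate 3 or LPS + Tan replicate 1 or 3, and 4 were without LPS + Tan replicate 2, where calls rose over the whole table as given above. This was Ndrg1, a stress-responsive gene, at 52.2 ± 17.3 and 31.0 ± 12.2 FPKM (SD, n = 4 each; log2 fold change -0.79, edgeR adjusted p = 0.924), and Krt8 itself averaged 42.6 and 44.9. No gene of any of these lists had an adjusted p under 0.05.

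Markers of the other cells of the lung were present in every list, none at 0 in all lungs. The airway marker Krt5 was at 0 FPKM in every lung but LPS replicate 3 (0.011) and was not tested. In edgeR, 0 markers of AT2, airway, lymphatic, mesothelial, fibroblast, leukocyte, red blood cell or cardiac muscle cells had an unadjusted p under 0.05. Median log2 fold changes were -0.050 for AT2, -0.17 for airway, -0.14 for lymphatic, -0.050 for mesothelial, -0.13 for fibroblast, 0.014 for leukocyte, -0.55 for red blood cell and 0.30 for cardiac markers. Prox1, the lymphatic regulator, averaged 0.552 and 0.486 FPKM, and Msln, a mesothelial gene, 23.2 and 22.2.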

How the data were processed

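RNA-seq of mouse lung was analysed in 4 LPS and 4 LPS + Tan samples, grouped by the labels. The authors deposited raw read counts per gene and FPKM values, each for 24584 genes. The submitters' notes name GRCm38 and mm10. Aligner, counter, annotation and strand setting: not given in the sources used here. Different extraction and library kits stand in the study's methods and in the labels. Within-group pairs differed by 7.83 to 23.0 times sampling noise, so none was a duplicate.

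The main test on the counts was the quasi-likelihood test of edgeR 4.0.16 under R 4.3.3 (TMM, filterByExpr, 15706 genes, Benjamini-Hochberg adjustment over all of them). Ratios of FPKM were tested with exact permutation tests over 70 arrangements. Alternatives used DESeq2 1.42.0 and limma 3.58.1, the latter on voom values and on log2 FPKM with pseudocounts of 1 and 0.1. The edgeR step was tested on simulated data. The 10 genes and all lists were chosen with earlier results of these data known. Named from each list were genes past an unadjusted p of 0.05 and a fixed set of defining markers (1 of which is not reported here), and for Cldn18, Cldn4 and Ager the 3 most similar genes.

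Reads of Cldn3 and Hopx could be shared with overlapping genes, which held 25 and 27 counts over all lungs against 17867 and 132969 for the 2 members.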

Additional observations from a re-analysis of the deposited data

Results flagged for a closer look

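Within groups of 4, a lung was marked when its gap to the nearest other lung, as a share of the group's range, exceeded Dixon's 95% critical value. Of 34 groups examined 5 were marked, where chance marks about 1 in 20, or 1.7. The ratios share genes with each other and with the single genes, so the groups are not independent. The 5 marks therefore cannot be set directly against 1.7. LPS + Tan replicate 2 was apart on the low side for Cav1 in log2 CPM (gap 0.869 of the range) and for the ratio of Cav1 to Cdh5 (0.887). LPS + Tan replicate 4 was apart on the low side for the ratio of Tjp1 to Ocln (0.905) and of Cldn4 to Cldn3 (0.906). LPS replicate 3 was apart on the low side for the ratio of Cldn3 to Cldn18 (0.894).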

How the results depend on the processing

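Cldn3, Cldn4, Cdh1, Pdpn and Cav1 kept the sign of their log2 fold change under all 18 alternatives, and no member reached an adjusted p under 0.05 in any. With estimates near 0, signs turned for Ocln with RLE scaling (-0.0022), without a filter (-0.0026), with at least 1 CPM in 4 samples (-0.0013), in DESeq2 (-0.0020), in limma-voom (-0.0039) and with the replicate block (-0.0034), and for Ager in the same settings (-0.0038, -0.0040, -0.0030, -0.0034, -0.012 and, with the replicate block, -0.013) and with gene length as an offset (-0.017), an alternative chosen after seeing the data. Hopx turned without TMM factors (0.0042). The cause was not tested. No sign was seen that the replicate numbers pair the samples, which 4 pairs cannot settle. Same-numbered lungs had correlations of 0.12, -0.031, -0.15 and 0.020, within the -0.21 to 0.22 of differently numbered lungs. With the replicate block Cav1 stayed at 0.38.

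Counts at an unadjusted p under 0.05 moved as follows. Other claudins had 1 higher gene in limma-voom, on both FPKM scales and with the replicate block, against 0. Other tight junction genes had 0 higher without a filter and with the block, against 1. Other AT1 genes had 3 higher without TMM factors, and 2 in DESeq2, on both FPKM scales and with the length offset, against 1. Caveolar genes had 1 higher without a filter, in DESeq2 and with the block, against 0. Krt8 state genes had 1 higher without TMM factors and on both FPKM scales, against 0, and 2 lower without a filter, in DESeq2, with the block and with the length offset, against 1. Genes lower over the whole table numbered 569 without a filter, against 353. Higher genes numbered 653 and lower genes 239 without TMM factors, against 451 and 353. In limma they numbered 644 and 276 with an FPKM pseudocount of 1, or 639 and 272 when it was 0.1.

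Leaving out 1 lung at a time gave log2 values from -0.13 to 0.066 for Ager, -0.15 to 0.021 for Hopx, -0.17 to 0.028 for Cldn18, -0.080 to 0.049 for Ocln -0.12 to 0.066 for Tjp1, -0.17 to -0.0032 for Cldn3, -0.21 to -0.037 for Cldn4, -0.20 to -0.078 for Cdh1, -0.20 to -0.064 for Pdpn and 0.24 to 0.52 for Cav1. Ratios ran from -0.19 to 0.013 for Ager/Sftpc, -0.095 to 0.035 for Cldn3/Cldn18, -0.083 to 0.069 for Cldn4/Cldn18, -0.066 to 0.076 for Cldn4/Cldn3, -0.17 to 0.15 for Tjp1/Ocln, -0.23 to -0.032 for Pdpn/Ager and 0.27 (without LPS replicate 3) to 0.78 (without LPS + Tan replicate 2) for Cav1/Cdh5. Genes called ran from 268 to 820 higher and 212 to 806 lower over the whole table (the lowest without LPS + Tan replicate 1, the highest without replicate 2, and 761 and 727 without replicate 4), and 0 to 1 higher among the members (Cav1, without LPS replicate 1 or LPS + Tan replicate 2). They ran from 0 to 1 higher for other claudins, 0 to 1 higher and 0 to 4 lower for other tight junction genes, 1 to 2 higher and 0 to 2 lower for adherens and desmosome genes, 1 to 5 higher and 0 to 2 lower for other AT1 genes, 0 to 4 higher for caveolar genes (4 without LPS + Tan replicate 2), and 0 to 1 higher and 0 to 4 lower for Krt8 state genes. Depth limits Cldn4 most, at 59 to 77 reads.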

Other observations

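Among tested genes outside the 10, those most like Cldn18, Cldn4 and Ager over the 8 lungs were not in the junction or AT1 lists. Group means were not removed here, unlike for the pairs of the 10 genes. By Pearson r of log2 CPM, Cldn18 was nearest to Plin2 (0.97), the gene of a lipid droplet coat protein, and to Chmp1a and Idh3g (both 0.95). Cldn4 was nearest to Tmem120a (0.98), Acer3 (0.97) and Zdhhc16 (0.96), and Ager to Laptm4b (0.99), Rpl28 and Cwc15 (both 0.98). Spearman's rho was lower for the Ager pairs, at 0.79, 0.86 and 0.88, and their Pearson r without LPS + Tan replicate 4, the highest lung for Ager, was 0.96, 0.94 and 0.93. For the Cldn18 pairs rho was 0.90, 0.95 and 0.83, and for the Cldn4 pairs 1.0, 0.90 and 0.86. Cldn4 was counted in few reads, and its variation between lungs was close to counting error. All 9 genes named here are the nearest by Pearson r. These were picked as the highest of the tested genes outside the 10, over 8 points, and describe likeness in these lungs only.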
